A study of Homo sapiens with 8 samples.

Results

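The glycolytic enzymes examined here are the products of 10 genes on the route from glucose to lactate: HK2, GPI, PFKL, PFKP, ALDOA, GAPDH, PGK1, ENO1, PKM and LDHA. TPI1 and PGAM1, which serve other steps of that route, are not members and were counted in a list around the pathway. The 10 genes were taken by gene name from the transcript expression table, with every transcript of each gene, which gave 140 of 134605 transcripts and 10 of 33711 genes. The libraries came from HCT116, an established human colorectal cancer cell line. In one group the cells had been transfected with siRNA against YTHDF3, a cytoplasmic protein that reads N6-methyladenosine (m6A) in RNA (si-YTHDF3), and in the other with a control siRNA (NC). The labels give both groups the same medium and transfection kit, and a transient knockdown leaves some of the target. The series holds 8 libraries in 4 groups, input RNA and m6A-precipitated RNA of each condition, and expression values existed for the 4 input libraries, 2 of si-YTHDF3 and 2 of NC. Nothing states whether replicates came from separate cultures, so the spread between them may be technical. The study's materials number a pair of siRNAs against YTHDF3 in the same way as the knockdown libraries are numbered. It is not stated whether the 2 si-YTHDF3 libraries are replicates of 1 siRNA or come from different siRNAs, and in the second case their SD also holds the difference between siRNAs.

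Glycolysis splits glucose into pyruvate in the cytosol and yields ATP and NADH. Hexokinase traps glucose in the cell as glucose 6-phosphate, phosphofructokinase makes the committed step, and pyruvate kinase releases the last ATP. Lactate dehydrogenase then turns pyruvate into lactate and returns the NAD+ that GAPDH needs. Colorectal tumours, like many cancers, use this route heavily even with oxygen present, and several of its genes are induced by hypoxia-inducible factor (HIF), which binds a short RCGTG core in promoters and enhancers.

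YTHDF3 itself had 2.53 and 3.25 FPKM in the si-YTHDF3 libraries, against 25.9 and 11.96 FPKM in the NC libraries (log2 fold change -2.27, SE 0.35, limma adjusted p = 0.135). The target did not pass after adjustment, and with 1 library left out its log2 fold change ran from -2.80 to -1.74. FPKM count fragments relative to the length of the transcript and to the total mapped in that library. For each gene they were added up over its transcripts. The target was thus below both NC libraries in both knockdown libraries, and the 2 NC libraries differed from each other more for it than most genes did. Over the 14457 genes with a mean of at least 1 FPKM, the median gap between replicates was 0.168 in si-YTHDF3 and 0.17 in NC on the log2 scale. The FPKM of all genes summed to 371121 to 383303 in the 4 libraries, and 14357 to 14483 genes reached 1 FPKM in each. The number of reads cannot be read from FPKM, so depth is unknown. Of 10 colon epithelial markers 9 were at 1 FPKM or more, led by KRT8 and KRT19, while VIL1 was at or near 0. Of 6 fibroblast markers COL1A1 alone was above 1 FPKM, with 11.89 and 13.7 FPKM in si-YTHDF3 cells and 15.78 and 11.99 FPKM in NC cells. Leukocyte markers summed to 0.459 to 0.594 FPKM and endothelial markers to 0.329 to 0.401 FPKM.

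The promoters of all 10 genes were found in RefSeq (GRCh38.p14), as 17 windows of 300 bases that run from 250 bases before to 50 bases after a start. Windows of PFKL, PGK1 and LDHA are shown because these genes stand at the highest and the lowest end of the expression differences described here. Each reads 5′ to 3′ on the plus strand, and capitals mark ACGTG or GCGTG on either strand, which appear as CACGT or CACGC where they lie on the other strand.
PFKL, chr21:44299803-44300102: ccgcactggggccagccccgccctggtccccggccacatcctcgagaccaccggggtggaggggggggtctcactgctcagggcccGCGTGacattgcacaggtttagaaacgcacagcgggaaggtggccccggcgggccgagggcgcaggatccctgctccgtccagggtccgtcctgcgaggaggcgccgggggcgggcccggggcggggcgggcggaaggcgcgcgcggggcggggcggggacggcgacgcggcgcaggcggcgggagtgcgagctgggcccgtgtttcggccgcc
PGK1, chrX:78103998-78104297: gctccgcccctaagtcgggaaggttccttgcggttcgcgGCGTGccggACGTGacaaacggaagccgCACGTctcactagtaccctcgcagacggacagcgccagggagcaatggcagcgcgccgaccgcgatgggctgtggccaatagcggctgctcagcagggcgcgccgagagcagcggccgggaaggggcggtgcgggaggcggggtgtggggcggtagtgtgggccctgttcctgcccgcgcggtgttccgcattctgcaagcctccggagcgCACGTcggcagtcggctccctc
LDHA, chr11:18394313-18394612: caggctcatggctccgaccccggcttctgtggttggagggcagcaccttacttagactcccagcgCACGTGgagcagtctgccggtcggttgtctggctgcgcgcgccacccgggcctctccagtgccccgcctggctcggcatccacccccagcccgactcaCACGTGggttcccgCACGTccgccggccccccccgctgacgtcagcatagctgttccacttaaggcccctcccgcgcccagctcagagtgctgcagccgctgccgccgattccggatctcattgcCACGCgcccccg
The PFKL window held 0 matches to ACGTG and 1 to GCGTG. The PGK1 window held 3 matches to ACGTG and 1 to GCGTG. The LDHA window shown, the first of 2, held 5 matches to ACGTG and 1 to GCGTG, and the other LDHA window held 0 and 1, where a palindromic CACGTG counts once on each strand. ACGTG was present in 10 of the 17 windows (58.8%), against 21.4% of all 35116 windows, and either motif in 15 windows (88.2%), against 48.4%. The 17 windows are not independent, since some genes have several and windows of ALDOA overlap. The background was all windows, not windows matched to the members in base composition or expression. By gene, 6 of the 10 held ACGTG in their first window and 7 in any window, and no share over all genes is given beside these counts. These are letter matches in the reference sequence, not measured binding sites, and no value of the series bears on binding there.

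The 10 mRNAs spanned a wide range of levels and kept the same order in both groups. GAPDH, which oxidises glyceraldehyde 3-phosphate, was the highest with 2177 and 2707 FPKM in si-YTHDF3 cells and 2586 and 2218 FPKM in NC cells. HK2, an inducible hexokinase, was the lowest with 10.29 and 11.5 FPKM in si-YTHDF3 cells and 8.67 and 10.98 FPKM in NC cells. Between them the order by mean FPKM per length ran PKM, ENO1, LDHA, ALDOA, GPI, PFKP, PGK1 and PFKL. Neighbours in this order did not overlap over the 4 libraries except for PKM with ENO1 and GPI with PFKP. The 10 genes together made up 1.43% and 1.65% of all FPKM in si-YTHDF3 cells, against 1.49% and 1.5% in NC cells. GAPDH, ENO1 and PKM gave 81.3% to 82.7% of that sum in every library.

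**Figure D1:**
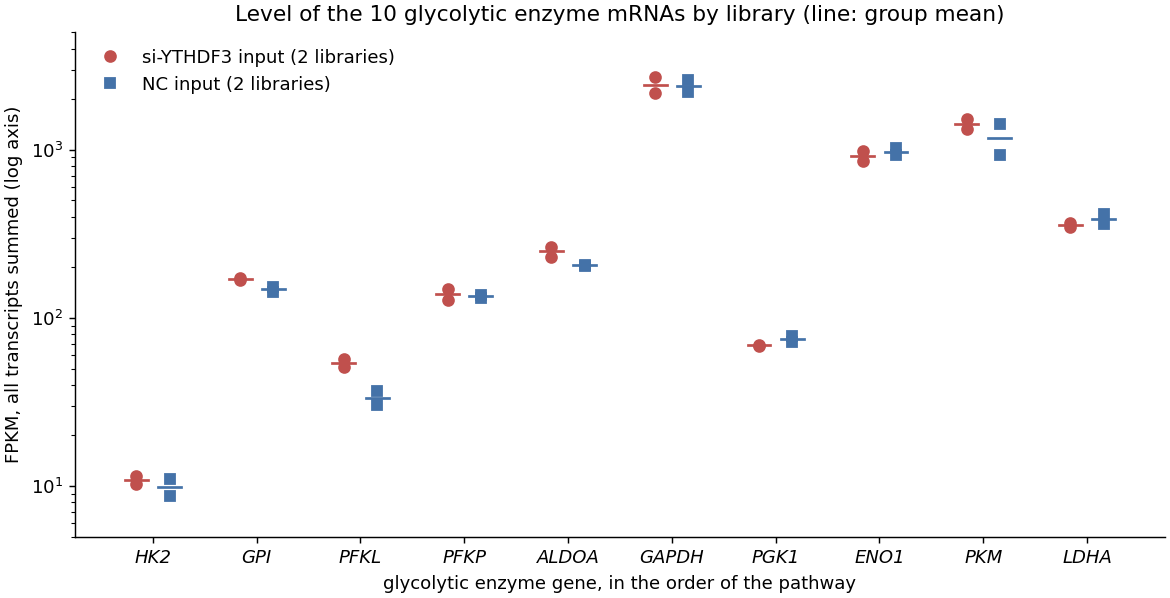
Summed FPKM of the 10 glycolytic enzyme genes (log axis) in the 2 si-YTHDF3 input libraries (red circles) and the 2 NC input libraries (blue squares), with a line at each group mean. The PFKL points of si-YTHDF3 (50.81 and 57.16) lie above those of NC (36.7 and 30.22), whereas the groups overlap for HK2, PFKP, GAPDH, ENO1, PKM and LDHA.

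The first comparison asked whether the mRNA levels of these enzymes differed after knockdown of YTHDF3. No enzyme mRNA passed the test: with limma and Benjamini-Hochberg adjustment over all 14457 genes, 0 of the 10 were called, against 4 of all genes (0.0277%). At an unadjusted p under 0.05, 1 of 10 was higher in si-YTHDF3 cells (PFKL), against 8.29% of all genes, and 0 were lower, against 6.53%. Both si-YTHDF3 libraries lay above both NC libraries for 3 genes (GPI, PFKL and ALDOA), against 25.3% of all genes, and below for 1 (PGK1), against 23.7%. The higher counts are near the background shares. The median log2 fold change of the 10 was 0.09, against 0.01 over all genes tested, and 7 were positive. None reached a 2-fold difference.

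HK2, which traps glucose at the start, overlapped between the groups (chr2:74833981-74893359, plus strand), and its log2 fold change was 0.14 with a 95% interval of -0.26 to 0.55 (limma adjusted p = 0.70). GPI, the isomerase that makes fructose 6-phosphate (chr19:34359480-34402156, plus strand), had 167.9 and 173.4 FPKM in si-YTHDF3 cells, against 153.4 and 143.1 FPKM in NC cells. Both knockdown libraries were the higher ones, but the log2 fold change of 0.20 had an interval that reached -0.08 (adjusted p = 0.439).

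PFKL, the liver-type phosphofructokinase (chr21:44300051-44327376, plus strand), stood furthest from NC. It had 50.81 and 57.16 FPKM in si-YTHDF3 cells, against 36.7 and 30.22 FPKM in NC cells, or 54.0 ± 4.49 against 33.5 ± 4.58 FPKM (SD, n = 2 each). The groups did not overlap, and the fold on the log2(FPKM + 1) scale was 1.60 with a 95% interval of 1.23 to 2.08. The log2 fold change of 0.68 (SE 0.15) had an unadjusted p of 0.00498 in limma and an adjusted p of 0.208, so it did not pass.

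The size of the PFKL difference depended on the annotation of its transcripts and on the NC library. The coding transcripts of PFKL summed to 13.55 and 15.8 FPKM in si-YTHDF3 cells, against 7.12 and 26.1 FPKM in NC cells, so that the NC libraries were both the lowest and the highest. With coding transcripts alone the log2 fold change was 0.08, with an interval of -1.54 to 1.69 (limma adjusted p = 0.962). The other PFKL transcripts, mostly retained introns, summed to 37.3 and 41.4 FPKM in si-YTHDF3 cells, against 29.6 and 4.12 FPKM in NC cells. They held 73.3% and 72.4% of the gene in si-YTHDF3 cells, against 80.6% and 13.6% in NC cells, so NC replicate 2 stood apart. Both si-YTHDF3 libraries were above NC replicate 1 in coding and in noncoding transcripts, and were below NC replicate 2 in coding transcripts alone. Among them ENST00000466134, a retained-intron transcript of 5986 bases, had 10.59 and 16.37 FPKM in si-YTHDF3 cells and 9.73 and 0.992 FPKM in NC cells. The summed PFKL level was higher in si-YTHDF3 cells also when any 1 library was left out, with log2 fold changes of 0.54 to 0.81.

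PFKP, the platelet-type phosphofructokinase (chr10:3066333-3137712, plus strand), had 127.7 and 148.9 FPKM in si-YTHDF3 cells, against 137.6 and 131 FPKM in NC cells. The NC values fell inside the si-YTHDF3 range, and the log2 fold change was 0.04 with an interval of -0.28 to 0.36. ALDOA, the aldolase that splits fructose 1,6-bisphosphate (chr16:30053090-30070457, plus strand), had 231.5 and 265.9 FPKM in si-YTHDF3 cells, against 207.5 and 204.5 FPKM in NC cells. Both knockdown libraries were above both controls, with a log2 fold change of 0.27 (SE 0.12), an unadjusted p of 0.0717 and an adjusted p of 0.366 in limma.

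In the lower part of the pathway, GAPDH (chr12:6533927-6538374, plus strand) had groups whose ranges overlapped almost fully, with a log2 fold change of 0.02 and an interval of -0.34 to 0.38. PGK1, which makes the first ATP (chrX:78065188-78129296, plus strand), had 69.26 and 67.97 FPKM in si-YTHDF3 cells, against 72.12 and 77.57 FPKM in NC cells. It was the single member with both knockdown libraries below both controls, by a log2 fold change of -0.12 with an interval of -0.42 to 0.17 (limma adjusted p = 0.641). ENO1, the main enolase (chr1:8861002-8879249, minus strand), had 855.2 and 988.7 FPKM in si-YTHDF3 cells, against 1024 and 929.5 FPKM in NC cells. Its groups overlapped, with a log2 fold change of -0.09 and an interval of -0.38 to 0.21.

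PKM, which encodes the pyruvate kinase of most tissues and tumours (chr15:72199029-72231822, minus strand), had 1338 and 1528 FPKM in si-YTHDF3 cells, against 931.7 and 1421 FPKM in NC cells. Only NC replicate 1 was low, and the gap between the NC libraries of 0.609 on the log2 scale exceeded that of 90% of genes (0.52). The log2 fold change of 0.31 had an interval of -0.21 to 0.84 (limma adjusted p = 0.513). Leaving out NC replicate 1 gave 0.0085, and leaving out NC replicate 2 gave 0.62. LDHA, the lactate dehydrogenase subunit that favours lactate formation (chr11:18394388-18408425, plus strand), had 346.6 and 364.8 FPKM in si-YTHDF3 cells, against 361.3 and 413.1 FPKM in NC cells. The groups overlapped by a small margin, with a log2 fold change of -0.12 and an interval of -0.41 to 0.17.

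**Figure D2:**
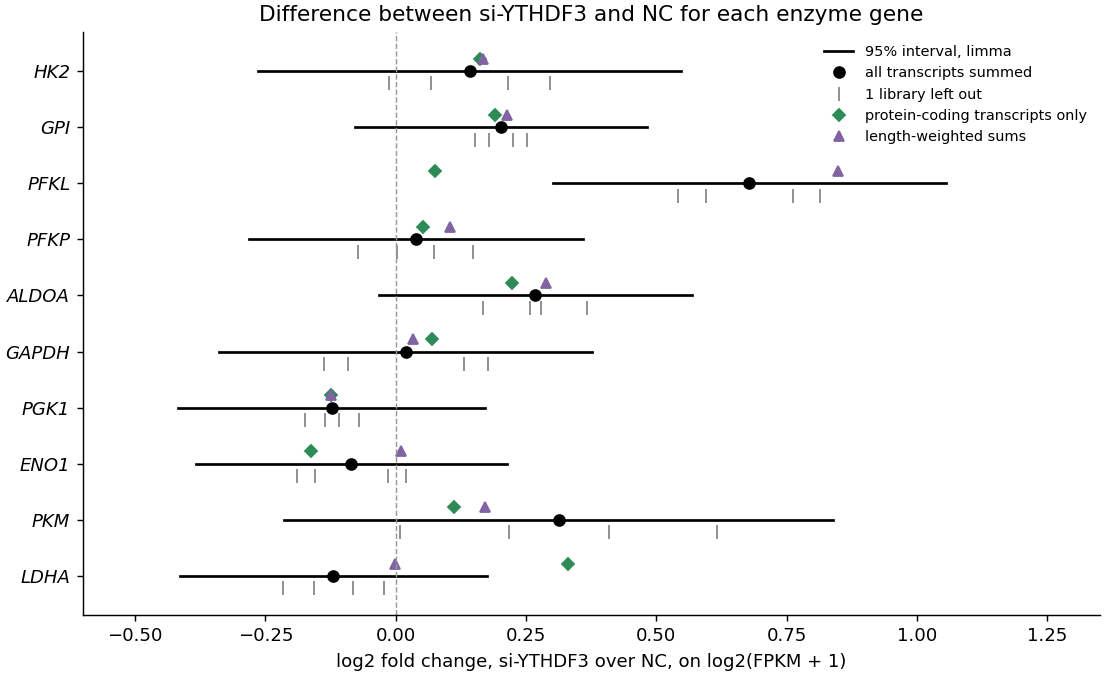
Log2 fold change of each enzyme gene, si-YTHDF3 over NC (x axis, on log2(FPKM + 1)), with its 95% interval from limma, beside the values from protein-coding transcripts alone (diamonds), from length-weighted sums (triangles) and with 1 library left out (ticks). The interval of PFKL (0.30 to 1.06) is the one that lies off 0, and its coding transcripts alone gave 0.08.

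Most steps of the pathway have more than 1 enzyme, and the share of each member among the isoenzymes of its reaction was computed per library. PFKL, PFKP and PFKM serve phosphofructokinase. PFKL held 22.9% and 22.6% of their FPKM in si-YTHDF3 cells, against 16.8% and 15% in NC cells. PFKP held 57.5% and 58.8% in si-YTHDF3 cells, against 63.1% and 65.1% in NC cells. PFKM, the muscle-type enzyme, held 19.7% and 18.7% in si-YTHDF3 cells, against 20.1% and 19.8% in NC cells. The shares of PFKL, PFKP and PFKM did not overlap between groups. However, the difference in PFKL share, 6.78 percentage points with all transcripts, was -1.37 points with coding transcripts alone.

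Shares at the other steps moved less, although those of ALDOA and ENO1 did not overlap between groups either. HK2 held 24.2% and 29% of hexokinase FPKM in si-YTHDF3 cells, against 20.6% and 25.5% in NC cells, the rest being mostly HK1. ALDOA held 87.7% and 87.4% of aldolase FPKM in si-YTHDF3 cells, against 86.9% and 86.4% in NC cells. ENO1 held 95.7% and 96% of enolase FPKM in si-YTHDF3 cells, against 96.9% and 96.7% in NC cells, with ENO2 and ENO3 making up the rest. LDHA and LDHB, the heart-type subunit, were nearly equal, and LDHA held 51.9% and 50% in si-YTHDF3 cells, against 50.6% and 50.3% in NC cells. These shares are descriptions of the libraries and carry no test.

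The 140 transcripts of the 10 genes comprised 77 annotated as protein-coding and 43 as retained introns, and 94 had a mean of at least 1 FPKM. Limma with adjustment over 38284 transcripts called 0 of the 94, as it did of all transcripts (0%). Before adjustment, 3 of them were higher and 3 lower in si-YTHDF3 cells with p under 0.05, 6 of 94 against 7.21% of all transcripts. The groups did not overlap for 29 of the 94, against 39.8% of all transcripts. The transcript with the highest mean of each gene had a log2 fold change from -0.12 (ENST00000373316 of PGK1) to 0.20 (ENST00000567118 of PKM). For PFKL it was 0.08 (ENST00000349048), but the NC libraries differed, at 7.12 and 26.1 FPKM, against 13.55 and 15.78 FPKM in si-YTHDF3 cells. In PKM, ENST00000568743 was almost as abundant by mean (400.3 against 405 FPKM), with a log2 fold change of 1.88 (SE 1.58).

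Transcripts with no coding annotation held most of the summed FPKM of 3 of the 4 most abundant genes. Such transcripts made up 69.7% and 72.7% of ENO1 in si-YTHDF3 cells, against 70% and 69.3% in NC cells. In PKM they made up 70.9% and 76.3% in si-YTHDF3 cells, against 62.3% and 75.8% in NC cells. In LDHA they made up 58.4% and 58.1% in si-YTHDF3 cells, against 79.1% and 55.5% in NC cells. GAPDH was lower, with 38.3% and 37% in si-YTHDF3 cells and 41.5% and 37.9% in NC cells. HK2, GPI, PFKP, ALDOA and PGK1 had 13.3% or less in every library. FPKM divide by transcript length, so a short transcript can hold a large share of the sum with few fragments. Weighted by length, transcripts with no coding annotation held 74.1% to 83.9% of ENO1, 66% to 71.5% of PKM and 55.1% to 76.1% of LDHA.

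NC replicate 1 stood apart in 3 genes by how their reads were split among transcripts, not by their total alone. In ENO1 the coding transcript ENST00000234590 had 254.3 and 266 FPKM in si-YTHDF3 cells, against 91.3 and 281.9 FPKM in NC cells. A shorter coding transcript of 647 bases, ENST00000497492, had 0.899 and 0 FPKM in si-YTHDF3 cells, against 210 and 0.0515 FPKM in NC cells. The low value of the longer ENO1 transcript and the high value of the shorter one thus fell in the same NC library.

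LDHA showed the same arrangement. Its coding transcript ENST00000379412 had 133.4 and 139.9 FPKM in si-YTHDF3 cells, while in NC cells it was listed at 0 in replicate 1 and had 163.9 FPKM in replicate 2. ENST00000460405, a retained-intron transcript of 680 bases, had 2.34 and 0 FPKM in si-YTHDF3 cells, against 77.9 and 8.1 FPKM in NC cells. The most abundant LDHA transcript, the retained-intron ENST00000375710, kept 42.7% to 43.1% of the gene in all 4 libraries. In sum, the LDHA coding transcripts had 144.3 and 152.8 FPKM in si-YTHDF3 cells, against 75.5 and 183.7 FPKM in NC cells.

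In PKM, ENST00000568743, a retained-intron transcript of 580 bases, had 430.9 and 565.1 FPKM in si-YTHDF3 cells, against 30.3 and 575 FPKM in NC cells. NC replicate 1 was low both in this transcript and in the PKM total. The coding transcript ENST00000568459 had 104 and 75.2 FPKM in si-YTHDF3 cells, against 130.3 and 1.25 FPKM in NC cells, so that here NC replicate 2 was the low one. Over all PKM coding transcripts the sums were 389.9 and 362.3 FPKM in si-YTHDF3 cells, against 351.2 and 344 FPKM in NC cells, with a log2 fold change of 0.11 and an interval of -0.14 to 0.37 in limma. The transcripts were not assigned to the M1 and M2 splice forms of PKM here.

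**Figure D3:**
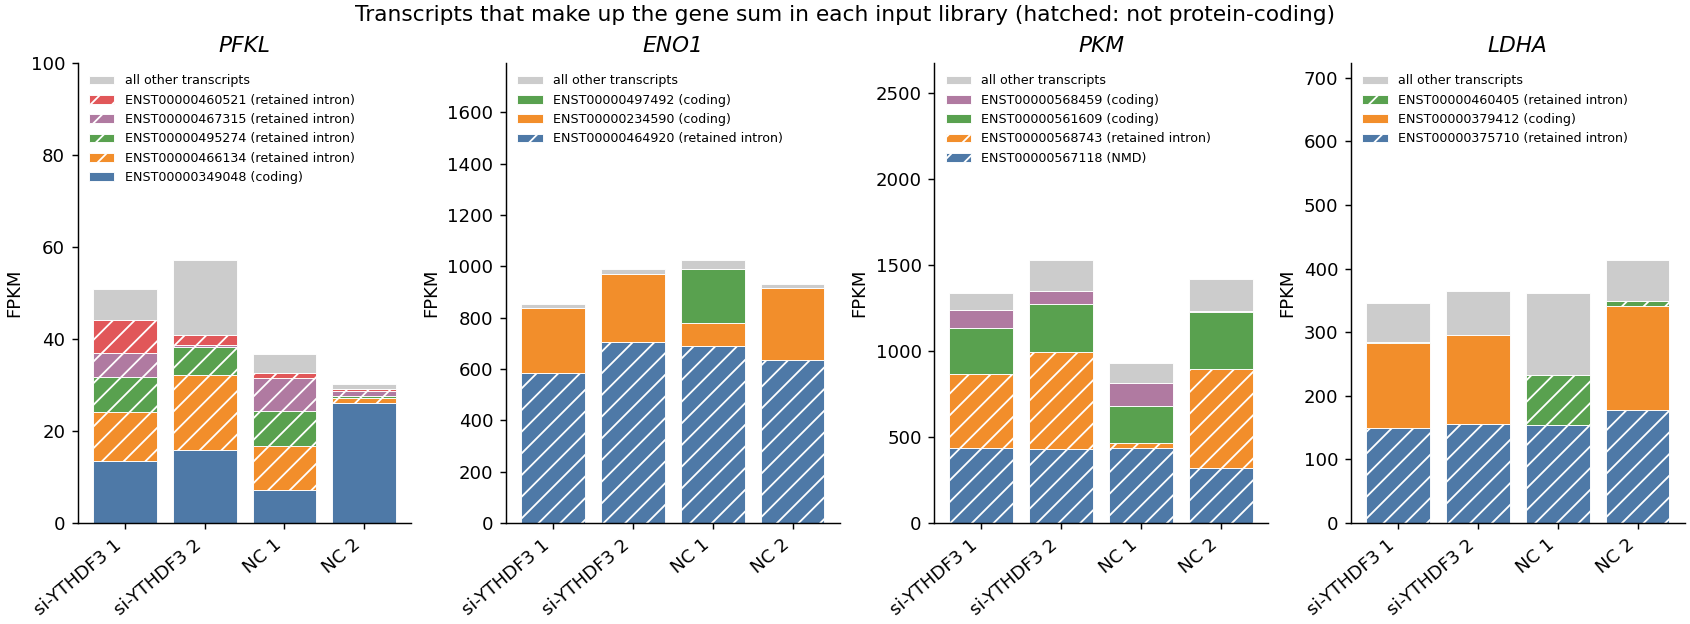
Stacked FPKM of the transcripts that reach 10% of PFKL, ENO1, PKM or LDHA in a library, with all other transcripts in grey, for each si-YTHDF3 and NC input library. Hatched parts are not annotated as protein-coding (NMD, nonsense-mediated decay). In NC 2 the coding ENST00000349048 is 86.4% of PFKL, and in NC 1 ENO1, PKM and LDHA are each split in another way than in the other 3 libraries. NC 2 departs in PKM too, where the coding ENST00000568459 is 0.0877% of the gene.

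In HK2, PGK1 and GPI the leading transcript held a similar share in every library. HK2 was almost all ENST00000290573, which held 94.8% to 98.7% of the gene, and PGK1 almost all ENST00000373316, with 94.7% to 95.5%. ENST00000415930 held 49.5% to 50.6% of GPI in all 4 libraries. GAPDH was divided among ENST00000396861, ENST00000229239 and the retained-intron ENST00000474249, and none of the 3 left 17.9% to 33.8% of the gene in any library. ENST00000381125 of PFKP had 93.9 and 109.8 FPKM in si-YTHDF3 cells, against 106.9 and 82.1 FPKM in NC cells. ALDOA spread over 27 transcripts, of which ENST00000569798 led the mean and held 24.9% and 32.2% of the gene in si-YTHDF3 cells, against 28.4% and 45% in NC cells. In si-YTHDF3 replicate 1 another coding transcript, ENST00000569545, was higher, with 60.06 FPKM against 57.75 FPKM.

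Genes around the pathway were examined as 8 lists with 116 entries, of which 91 genes could be tested, and limma called 0 of them after adjustment. At an unadjusted limma p under 0.05, 8.29% of all genes were higher in si-YTHDF3 cells and 6.53% lower, the background for each list below. Among other glycolytic isoenzymes, 1 of 12 was higher and 0 lower at that threshold, and the list median was 0.13. The 1 was ENO3, the muscle enolase, with 14.44 and 12.79 FPKM in si-YTHDF3 cells, against 10.54 and 9.15 FPKM in NC cells (log2 fold change 0.43, adjusted p = 0.294). ENO2, PGAM4 and LDHD had log2 fold changes of 0.25, 0.30 and 0.28. PGAM4 is a near copy of PGAM1, so its reads may be shared with that gene.

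Of 10 regulators of glycolytic flux, 1 was higher and 3 were lower at an unadjusted p under 0.05, against 8.29% and 6.53% of all genes, with a median of -0.07. PFKFB3 makes fructose 2,6-bisphosphate, a potent activator of phosphofructokinase. It had 16.83 and 20.28 FPKM in si-YTHDF3 cells, against 9.34 and 10.85 FPKM in NC cells (log2 fold change 0.82, SE 0.16, limma adjusted p = 0.181), and length-weighted sums gave 0.38. TIGAR, which breaks fructose 2,6-bisphosphate down, had 5.14 and 4.22 FPKM in si-YTHDF3 cells, against 6.84 and 7.4 FPKM in NC cells (log2 fold change -0.52, adjusted p = 0.255).

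HIF1A, the oxygen-sensitive subunit of HIF, had 53.66 and 46.36 FPKM in si-YTHDF3 cells, against 62.71 and 75.71 FPKM in NC cells (log2 fold change -0.46, limma adjusted p = 0.290). PDP2, a phosphatase that activates pyruvate dehydrogenase, had 2.97 and 4.99 FPKM in si-YTHDF3 cells, against 15.87 and 7.04 FPKM in NC cells (log2 fold change -1.26, adjusted p = 0.272). The PDP2 value was -0.72 without NC replicate 1 and -0.74 with length-weighted sums. Among 16 hypoxia-induced genes outside glycolysis the median was -0.08, with 1 higher (DDIT4, log2 fold change 0.35, adjusted p = 0.333) and 0 lower at an unadjusted p under 0.05. P4HA2 and EGLN3 had log2 fold changes of -0.39 and -0.37, and HILPDA had 7.52 and 0.811 FPKM in si-YTHDF3 cells, against 0.477 and 0.479 FPKM in NC cells, so that si-YTHDF3 replicate 1 alone was high.

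Glucose and lactate transporters had 0 of 11 genes at an unadjusted p under 0.05 and a median of -0.14. SLC16A1, a lactate transporter, had 11.01 and 30.29 FPKM in si-YTHDF3 cells, against 10.77 and 12.8 FPKM in NC cells, and its log2 fold change of 0.61 rested on si-YTHDF3 replicate 2. SLC16A8, SLC16A7 and SLC2A8 had log2 fold changes of 0.41, -0.34 and -0.23. For pyruvate dehydrogenase and the TCA cycle, 1 of 22 genes was higher and 0 lower, with a median of -0.04. The 1 was SDHC, a subunit of succinate dehydrogenase, with 11.5 and 20.09 FPKM in si-YTHDF3 cells, against 8.62 and 9.43 FPKM in NC cells (log2 fold change 0.70, limma adjusted p = 0.317). It was 0.32 without si-YTHDF3 replicate 2, the high library, and 0.18 with length-weighted sums. The log2 fold changes were 0.42 for IDH3A, 0.28 for SDHB and 0.28 for CS, the citrate synthase, and IDH3A came to 0.09 without NC replicate 1.

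In the pentose phosphate pathway, which branches off at glucose 6-phosphate, 1 of 10 genes was higher and 0 lower, with a median of 0.003. The 1 was H6PD, the glucose 6-phosphate dehydrogenase of the endoplasmic reticulum, with 5.71 and 6.38 FPKM in si-YTHDF3 cells, against 1.85 and 3.89 FPKM in NC cells (log2 fold change 0.91, limma adjusted p = 0.260), and leaving out NC replicate 1 gave 0.52. PGLS, PGM2 and PGD had log2 fold changes of 0.28, -0.21 and -0.13. The 4 tested genes of gluconeogenesis, G6PC3, SLC37A4, PCK2 and PC, had log2 fold changes of 0.92, 0.58, 0.23 and 0.16, with 0 of 4 at an unadjusted p under 0.05. These values depended on single libraries to unlike degrees. SLC37A4 came to 0.05 without NC replicate 2 and PCK2 to 0.02 without si-YTHDF3 replicate 2. With 1 library left out G6PC3 ran from 0.37, without si-YTHDF3 replicate 1, to 1.46, and PC from -0.013 to 0.32. Of 6 factors that regulate PKM splicing, 0 were at that threshold, and PTBP1, SRSF3, HNRNPA2B1 and RBM4 had log2 fold changes of 0.18, 0.17, -0.15 and 0.12.

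**Figure D4:**
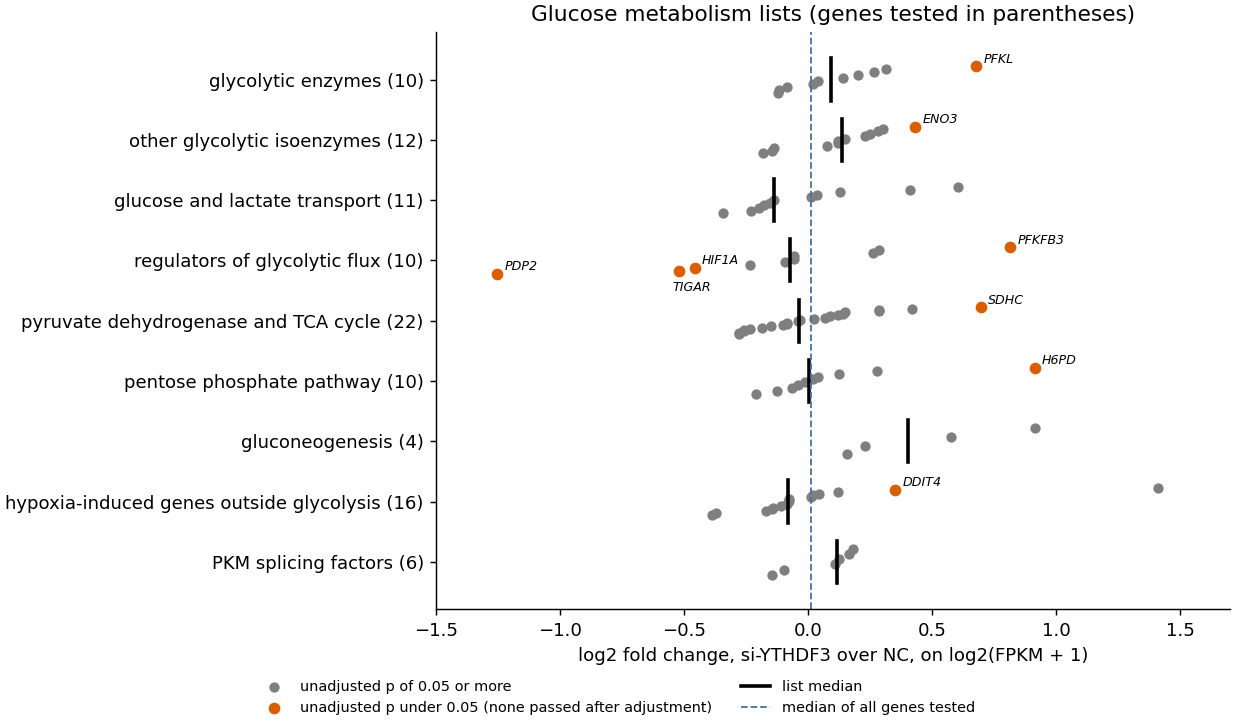
Log2 fold change (x axis, si-YTHDF3 over NC on log2(FPKM + 1)) of each tested gene of the 10 glycolytic enzymes and of 8 lists around the pathway, with list medians as black bars and the median of all 14457 genes (0.01) as a dashed line. Genes at an unadjusted p under 0.05 are in orange with their names, and none passed after adjustment.

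Pseudogenes that resemble these mRNAs can take or give reads. The table held 48 pseudogenes named after 7 of the 10 members, 33 of them after GAPDH, and 4 reached a mean of 1 FPKM. None of the 4 was at an unadjusted p under 0.05. The 5 LDHA pseudogenes summed to 5.04% and 4.59% of LDHA in si-YTHDF3 cells, against 4.76% and 5.07% in NC cells. GAPDH pseudogenes summed to 0.272% and 0.296% of GAPDH in si-YTHDF3 cells, against 0.27% and 0.32% in NC cells. GAPDH also overlaps an antisense RNA, AC006064.4, with 31.39 and 31.59 FPKM in si-YTHDF3 cells and 28.34 and 34.17 FPKM in NC cells, and whether counting used the strand is not stated.

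For m6A, the list analysed here held 99 differential peaks in 90 genes, all on chromosome 1, with no value per library, and it may be part of a longer list. It held 0 peaks in the 10 genes. ENO1 is the single member on chromosome 1, so the list does not bear on the other 9 members. It lies on the minus strand, which held 5 of the listed peaks, against 94 on the plus strand. The absence of an ENO1 peak from this list therefore says little. Of the surrounding genes, H6PD had a peak in its last exon at chr1:9263695-9263965 with a fold enrichment of 1.54, and PGD had a peak at chr1:10399645-10399825 with a fold enrichment of 1.29.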

How the data were processed

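Total RNA of HCT116 cells transfected with jetPRIME was fragmented and sequenced on an Illumina instrument, as input and after m6A precipitation, and groups and replicates were taken from the sample titles. The FPKM that the authors deposited cover Ensembl transcripts in 4 input libraries and are scaled by transcript length and by mapped fragments (build GRCh38, per the labels). The authors deposited a fold enrichment, a ratio of IP over input, for each differential peak of both conditions together. No aligner, quantifier or peak caller is named (not given in the sources used here). Their own fold changes, p-values and q-values were not used.

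FPKM of the transcripts of a gene were summed. Genes, and separately transcripts, were kept at a mean of 1 FPKM or more and fitted on log2(FPKM + 1), 2 libraries against 2, with limma 3.58.1 (lmFit, then eBayes with trend) under R 4.3.3, adjusted over the whole table at 0.05. Fold changes on this scale understate changes of low genes. The fit was tested on simulated data with the same spread for every gene and larger changes than those of the enzymes. That test does not show how the fit behaves with unequal spreads or small changes. Low values of single transcripts showed no steps of whole reads, so depth is unknown and no counting interval is given. Alternatives covered pseudocount, filter, scaling, coding or length-weighted sums, trend, replicate block and leaving out libraries.

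The members, the 8 lists and the naming rule were chosen with earlier results of these data known. The rule names the 10 genes, YTHDF3, in each list the 4 genes that differ most in log2 fold change, any list gene at an unadjusted p under 0.05, and transcripts with 10% of their gene in a library. The reads of pseudogenes cannot be assigned again from FPKM. A gene of the lists is not reported here and was left out of their counts. Promoters are from RefSeq (GRCh38.p14). Figures were drawn with matplotlib 3.10.9.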

Additional observations from a re-analysis of the deposited data

How the results depend on the processing

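Under every alternative 0 of the 10 enzymes passed after adjustment, and GPI, PFKL, ALDOA, PGK1 and PKM kept their direction in all of them. Limma called 4 genes of the whole table, 0 with no filter, 15 with a filter at 5 FPKM, 0 with coding transcripts alone, 30 with length-weighted sums and 0 to 67 with 1 library left out, where a lone library is assumed to vary like the other group. Same-numbered libraries did not deviate together (r = -0.11 over 14457 genes), so the replicate numbers were not taken as pairs. With the replicate block 132 genes were called, and with the crossed pairing, chosen after seeing the data, 0. The median of the 10 enzymes was -0.0016 to 0.20 with 1 library left out. Directions turned for PFKP under quantile normalization (-0.019), GAPDH on the TPM scale (-0.011), ENO1 with length-weighted sums (0.011) and LDHA with coding transcripts alone (0.33). With 1 library left out the log2 fold change ran from -0.012 to 0.30 for HK2, -0.072 to 0.15 for PFKP, -0.14 to 0.18 for GAPDH and -0.19 to 0.019 for ENO1. Coding transcripts alone gave differences in share of -1.37 points for PFKL, 0.314 for PFKP and 1.05 for PFKM. With coding transcripts alone the log2 fold change was -0.43 for G6PC3 and -0.37 for SRSF3. With length-weighted sums the log2 fold change was -0.012 for PC and -0.050 for SRSF3. Leaving out 1 library gave -0.086 to 1.30 for SLC16A1, -0.44 to 0.19 for PGD, -0.013 to 0.32 for PC and -0.077 to 0.32 for RBM4. Other list genes that kept their sign also varied, among them LDHD (0.087 to 0.47), PTBP1 (0.022 to 0.34), SLC2A8 (-0.44 to -0.023) and HILPDA (0.29 to 2.53). For leading transcripts it gave -0.79 to 0.95 (ENST00000349048), -0.073 to 0.30 (ENST00000381125), -0.38 to 0.25 (ENST00000569798), -0.24 to 0.25 (ENST00000396861), -0.18 to 0.094 (ENST00000464920) and -0.015 to 0.42 (ENST00000567118). The cause of these turns was not tested. Among the fits that kept all 4 libraries, YTHDF3 passed with the replicate block alone (limma adjusted p = 0.00031). Its limma adjusted p was 0.135 in the main fit and 0.204 with the crossed pairing. With 1 library left out its log2 fold change ran from -2.80 to -1.74.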
